A study of Mus musculus with 16 samples.

Results

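The CC chemokine ligands Ccl2, Ccl3, Ccl4, Ccl5, Ccl6, Ccl7, Ccl9, Ccl12 and Ccl22 were followed in RAW264.7 cells, a macrophage-like line derived from a mouse tumour. These 9 genes were taken as every non-control probe that carries one of the gene names, which gave 9 probes, 1 for each gene, out of 55681 probes for 34779 genes on the array. The study asked how cordycepin, an adenosine analogue known as an inhibitor of polyadenylation, alters mRNA levels in macrophages stimulated with lipopolysaccharide (LPS), a component of the outer membrane of Gram-negative bacteria. All cultures were kept in low-serum medium and then received either 20 μM cordycepin in dimethyl sulphoxide (DMSO) or the DMSO vehicle, and LPS at 1 μg/ml was added to some of them after 60 min. The conditions were DMSO for 120 min, cordycepin for 120 min, DMSO with LPS for the last 60 min (LPS+DMSO), and cordycepin with LPS for the last 60 min (LPS+cordycepin). Each condition had 4 biological replicates, 1 for each culture day, and was measured on 1-colour Agilent arrays, 16 in all. The cells are 1 line in culture, so that the spread described is the spread between culture days of that line.

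CC chemokines are small secreted proteins that bind G protein-coupled receptors and draw leukocytes into tissue along a gradient. Activated macrophages are a major source of them, and LPS acting through Toll-like receptor 4 is known to switch on many of their genes through the transcription factor NF-kB. Ccl2, Ccl7 and Ccl12 recruit monocytes through the receptor CCR2, Ccl3, Ccl4 and Ccl5 act on T cells and monocytes, Ccl6 and Ccl9 bind CCR1, and Ccl22 attracts T cells through CCR4.

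On the mm9 build used by the array files, 8 of the 9 probes lie on chromosome 11, in 2 groups. The probes of Ccl2 (chr11:81850650-81850709), Ccl7 (chr11:81860656-81860715) and Ccl12 (chr11:81916764-81916823) are on the plus strand within 66.2 kb. Those of Ccl5 (chr11:83339296-83339355), Ccl9 (chr11:83388223-83388282), Ccl6 (chr11:83401997-83402056), Ccl3 (chr11:83461358-83461417) and Ccl4 (chr11:83478052-83478111) lie within 138.8 kb, the first 4 on the minus strand and Ccl4 on the plus strand, and 1422.5 kb separate the groups. The Ccl22 probe (chr8:97274709-97274768) is the only one on chromosome 8. The promoters of 2 genes raised by LPS, Ccl3 and Ccl12, and of 2 neighbours that did not pass the test, Ccl6 and Ccl9, are shown as the 250 bases before the start of transcription in RefSeq (GRCm38.p6), and are Ccl3 at chr11:83649379-83649628 (minus strand), Ccl12 at chr11:82101595-82101844 (plus strand), Ccl6 at chr11:83593088-83593337 (minus strand) and Ccl9 at chr11:83578637-83578886 (minus strand). Capitals mark matches to TATAAA (the letters of a TATA box), to TGANTCA (a form bound by AP-1) and to the NF-kB consensus, each searched on both strands.
Ccl3: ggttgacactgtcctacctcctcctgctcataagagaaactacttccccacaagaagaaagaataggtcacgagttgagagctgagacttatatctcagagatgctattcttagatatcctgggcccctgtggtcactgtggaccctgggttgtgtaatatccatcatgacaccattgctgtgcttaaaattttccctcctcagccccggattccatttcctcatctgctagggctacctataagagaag
Ccl12: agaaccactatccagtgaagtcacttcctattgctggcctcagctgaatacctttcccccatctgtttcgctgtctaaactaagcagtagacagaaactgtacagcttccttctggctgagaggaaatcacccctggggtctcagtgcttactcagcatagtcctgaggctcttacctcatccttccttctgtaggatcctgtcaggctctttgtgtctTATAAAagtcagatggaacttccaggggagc
Ccl6: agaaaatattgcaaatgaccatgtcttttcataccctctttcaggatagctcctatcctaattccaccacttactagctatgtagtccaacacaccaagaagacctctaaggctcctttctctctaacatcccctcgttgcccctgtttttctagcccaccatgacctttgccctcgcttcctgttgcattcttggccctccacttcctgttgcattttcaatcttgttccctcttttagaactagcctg
Ccl9: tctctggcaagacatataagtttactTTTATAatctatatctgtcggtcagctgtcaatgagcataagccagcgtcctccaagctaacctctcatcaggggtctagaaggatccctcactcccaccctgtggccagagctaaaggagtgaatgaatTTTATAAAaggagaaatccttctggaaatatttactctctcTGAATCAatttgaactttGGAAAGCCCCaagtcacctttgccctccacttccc

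Of these promoters, the one of Ccl9 alone held the NF-kB consensus, at position -35 from the start on the minus strand, and an AP-1 form at -53. The TATA letters were found at -31 of Ccl12 and in 3 places of Ccl9, 2 of which overlap on opposite strands. Among 32851 promoters of the same length, 7.25% held the NF-kB consensus, 6.75% the AP-1 form and 12.4% the TATA letters. These matches describe the letters of the windows. The promoter of Ccl22 was searched too, held none of these matches and is not printed. Those of Ccl2, Ccl4, Ccl5 and Ccl7 were not among the promoters searched.

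Levels are log2 of the processed spot intensity after each array was set to the same 75th percentile, so that 1 unit is a 2-fold difference, and the level of one probe is not compared with that of another. Macrophage markers were in place, with 8 of 8 (Cd68, Adgre1, Csf1r, Itgam, Lyz2, Cd14, Spi1 and Fcgr1) well above background on all arrays, and between 21999 and 30362 spots were well above background on each array (37.1% to 51.2%). The control array DMSO replicate 2 stood apart. On it 970 of 15877 genes (6.11%) lay at least 2-fold from the median of the other DMSO arrays, against 55 to 726 genes on each of the other 15 arrays, and among the chemokines Ccl5 was far higher and Ccl9 far lower there than in the other controls. Of 268 genes that LPS raised within cordycepin, a comparison without DMSO arrays, 54 were at least 2-fold higher on DMSO replicate 2 than the median of the other controls, against 4 to 29 on each of those. The label of this array was kept, and what sets it apart was not tested. Results that use DMSO are therefore given with and without that array. Replicates 1 and 2 of every condition shared a slide and so did replicates 3 and 4. Pairs of values within the slides are in that order, each a mean of 2 days.

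**Figure D1:**
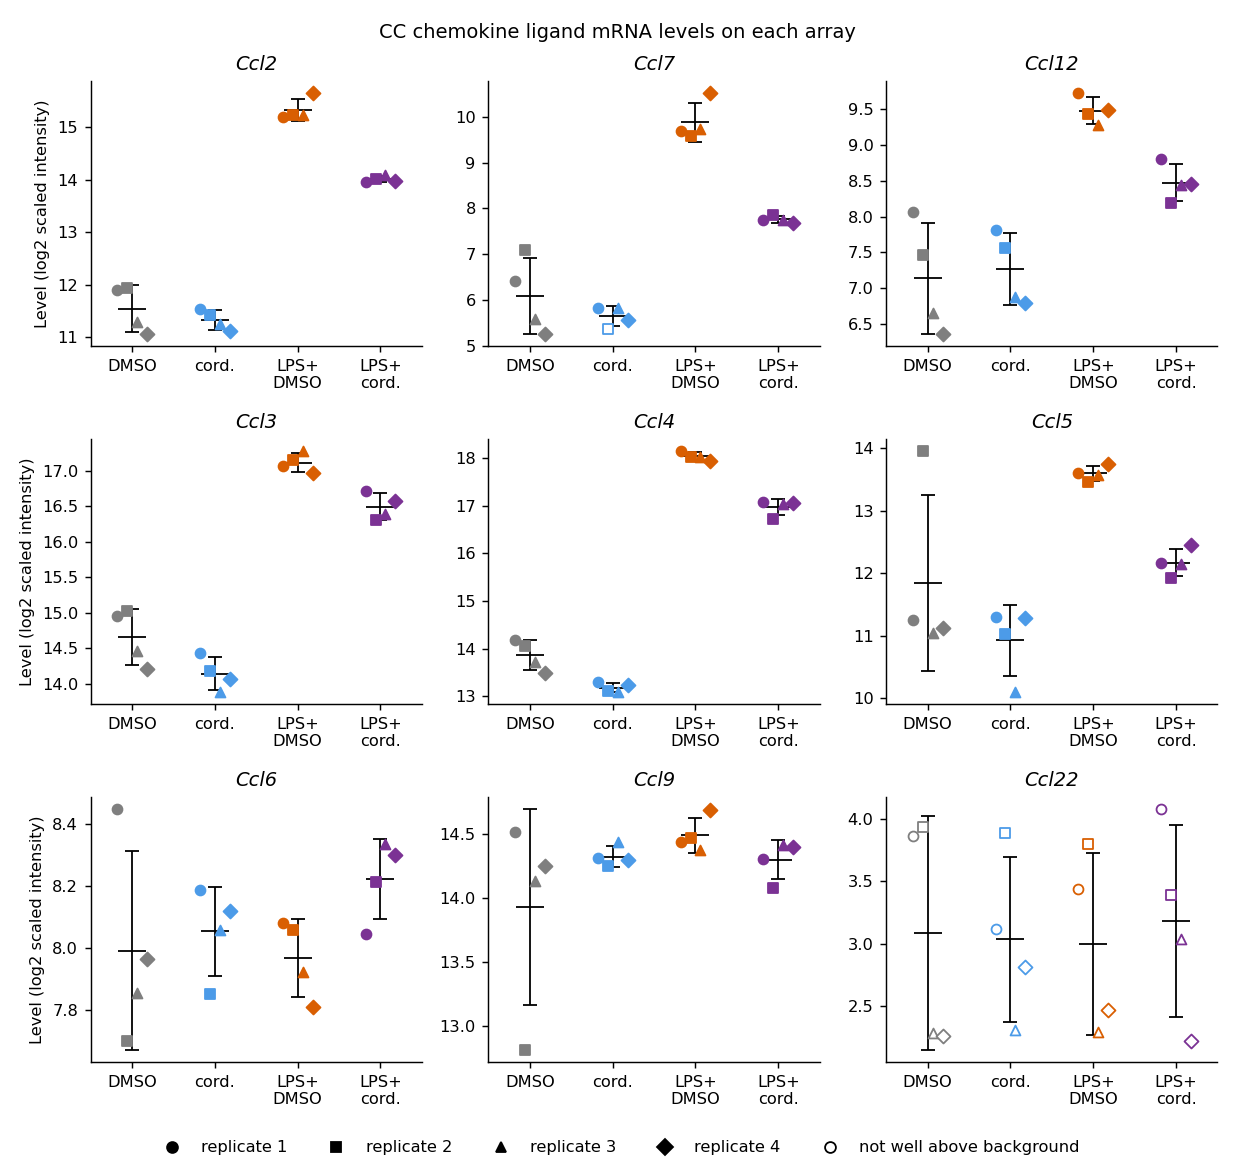
Levels of the 9 chemokine mRNAs (log2 scaled intensity, y axis) on each of the 16 arrays by condition (x axis; cord., cordycepin), with marker shapes for the replicate numbers, black bars for the mean ± SD (n = 4) and open symbols for probes not well above background. In the top row the LPS arrays of Ccl2, Ccl7 and Ccl12 lie above all arrays without LPS, and LPS+cordycepin lies below LPS+DMSO, whereas Ccl6 and Ccl9 stay within a narrow range apart from single DMSO arrays.

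The first question was which of the chemokines LPS raised within 60 min in vehicle. Of the 8 genes that passed the filter on dim probes, 6 rose with LPS, which were Ccl2, Ccl7, Ccl12, Ccl3, Ccl4 and Ccl5, while Ccl6 and Ccl9 did not pass the test (limma, adjusted p below 0.05 with a change of 2-fold or more). Across all genes tested, 2.09% rose by the same rule. The median change of the 8 genes was 2.40 on the log2 scale, against -0.038 over all genes tested. The genes were chosen with earlier results of these data known, so that their shared direction is not independent evidence. Whether more cells or more mRNA in each cell gave a higher level cannot be told apart in bulk RNA. Of the 8 macrophage markers Cd14 was called higher (1.12) and Fcgr1 lower (-1.14) in this comparison, with a summed level of 17.66 to 18.28 in DMSO and 18.23 to 18.38 in LPS+DMSO, and their part in the chemokine changes was not tested.

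Ccl2, the main chemoattractant of CCR2-bearing monocytes, read 11.90, 11.93, 11.29 and 11.05 in DMSO replicates 1 to 4 and 15.19, 15.24, 15.24 and 15.65 in LPS+DMSO. Every LPS+DMSO array was above every DMSO array, and replicate 4 gave the highest stimulated level. The rise was 3.79 ± 0.18 (SE) on the log2 scale, or 13.8-fold (limma, adjusted p = 7.1e-10), and 3.92 without DMSO replicate 2. It was 3.30 on the slide of replicates 1 and 2 and 4.28 on that of replicates 3 and 4. The probe was spotted 10 times on each array, the other 8 probes once.

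Ccl7, a ligand of the same receptor that mobilises monocytes from bone marrow, went from 6.41, 7.08, 5.58 and 5.25 in DMSO to 9.69, 9.58, 9.73 and 10.52 in LPS+DMSO. No values overlapped, and the DMSO arrays of replicates 1 and 2 were the higher ones. Its change of 3.80 ± 0.31 was 13.9-fold (limma, adjusted p = 4.1e-07), 4.14 without DMSO replicate 2, and 2.89 and 4.71 within the slides. The size depended on the processing, with 2.55 after another background correction (normexp) and 2.95 in the authors' values.

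Ccl12, a mouse monocyte chemoattractant with no direct human counterpart, read 8.06, 7.47, 6.65 and 6.36 in DMSO and 9.72, 9.42, 9.28 and 9.48 with LPS. The groups were apart, with the control levels spread more widely than the stimulated ones. The difference was 2.34 ± 0.32, or 5.06-fold (limma, adjusted p = 7.9e-05), 2.45 without DMSO replicate 2, and 1.81 and 2.87 within the slides.

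Ccl3, an inflammatory protein that binds CCR1, stood at 14.95, 15.02, 14.46 and 14.20 in DMSO and at 17.06, 17.15, 17.27 and 16.96 in LPS+DMSO. All stimulated arrays were higher, on each of the culture days. Its rise was 2.45 ± 0.17, or 5.47-fold (limma, adjusted p = 7.9e-08), 2.57 without DMSO replicate 2, and 2.12 and 2.79 within the slides.

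Ccl4, the neighbour of Ccl3 and a chemoattractant of T cells and monocytes, read 14.18, 14.06, 13.72 and 13.49 in DMSO against 18.15, 18.04, 18.03 and 17.95 with LPS. The stimulated arrays lay within a narrow band far above the controls. This was the largest change of the 8 genes tested, 4.18 ± 0.13 or 18.1-fold (limma, adjusted p = 1.3e-11), 4.24 without DMSO replicate 2, and 3.97 and 4.38 within the slides.

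Ccl5, a chemoattractant of T cells and monocytes, read 11.26, 13.95, 11.04 and 11.13 in DMSO and 13.60, 13.46, 13.58 and 13.75 in LPS+DMSO. DMSO replicate 2 alone was above all stimulated arrays, and the other 3 controls were far below them. With all arrays the change was 1.75 ± 0.49, or 3.36-fold (limma, adjusted p = 0.024), higher on 3 of 4 culture days. Without DMSO replicate 2 it was 2.45 ± 0.23 (adjusted p = 4.0e-06). The call was lost without DMSO replicate 1, 3 or 4 (1.48 to 1.55, adjusted p = 0.067 to 0.081) and without LPS+DMSO replicate 1, 3 or 4 (1.70 to 1.76, adjusted p = 0.051 to 0.058). Within the slides the change was 0.92, where DMSO replicate 2 is, and 2.57.

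Ccl6, a CCR1 ligand that macrophages make without stimulation, read 8.45, 7.70, 7.85 and 7.96 in DMSO and 8.08, 8.06, 7.92 and 7.81 with LPS. The values overlapped fully. The change of -0.025 had a 95% interval from -0.32 to 0.27 (limma, adjusted p = 0.95), which leaves out a 2-fold change in either direction. It was -0.12 ± 0.14 without DMSO replicate 2 (adjusted p = 0.66), and -0.0046 and -0.045 within the slides.

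Ccl9, another CCR1 ligand known for recruiting dendritic cells and osteoclast precursors, stood at 14.52, 12.81, 14.14 and 14.25 in DMSO and at 14.44, 14.47, 14.37 and 14.69 in LPS+DMSO. Only DMSO replicate 2 lay clearly below the rest. The change was 0.56 ± 0.26 (limma, adjusted p = 0.18) with a 95% interval from 0.011 to 1.12, and 0.19 ± 0.11 (adjusted p = 0.32) without DMSO replicate 2. Within the slides it was 0.79 and 0.34.

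Ccl22, a T cell attractant of dendritic cells and alternatively activated macrophages, was well above background on 0 of 16 arrays and was not tested. Its readings ran from 2.26 to 3.93 in DMSO, from 2.31 to 3.89 in cordycepin, from 2.29 to 3.80 in LPS+DMSO and from 2.22 to 4.08 in LPS+cordycepin. These overlapped in every pair of conditions and have no order at this signal.

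The second question was what cordycepin did to these mRNAs in the presence of LPS. Of the 8 genes, 4 fell from LPS+DMSO to LPS+cordycepin by the rule above, which were Ccl7, Ccl2, Ccl4 and Ccl12, and none rose. The count was 2 without LPS+cordycepin replicate 2, when Ccl4 and Ccl12 no longer passed, and 5 without DMSO replicate 2, when Ccl5 did. Across all genes tested, 1.52% were lower by this rule. With no minimum fold Ccl3 joined them, so that 5 of 8 passed, against 8.45% of all genes. The median change was -1.03, against 0.033 over all genes. The LPS+DMSO arrays are those of the preceding comparison.

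Ccl7 fell furthest. Its LPS+cordycepin arrays read 7.75, 7.86, 7.74 and 7.68, all below the lowest LPS+DMSO array at 9.58. It fell by 2.12 ± 0.31 on the log2 scale (limma, adjusted p = 1.0e-04), to 22.9% of the LPS+DMSO level (95% interval 14.5% to 36.3%). The change on single days ran from -2.84 to -1.73, and was largest on that of replicate 4, where LPS+DMSO was highest, and the mean changes were -1.84 and -2.41 within the slides.

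Ccl2 read 13.95, 14.02, 14.09 and 13.97 in LPS+cordycepin. The 4 arrays were nearly the same and all below LPS+DMSO. It fell by 1.33 ± 0.18 (limma, adjusted p = 4.3e-05), to 39.9% of the LPS+DMSO level (30.7% to 51.9%), and the changes were -1.23 and -1.42 within the slides.

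Ccl4 read 17.08, 16.72, 17.05 and 17.07 with LPS+cordycepin, again below every LPS+DMSO array. It fell by 1.06 ± 0.13 (limma, adjusted p = 2.3e-05), to 47.9% (39.3% to 58.4%). The size sits close to 2-fold. Without LPS+cordycepin replicate 2, the lowest array, the change was -0.98 (adjusted p = 1.0e-04), short of the minimum fold. Within the slides it was -1.19 and -0.93.

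Ccl12 read 8.81, 8.19, 8.44 and 8.46, and no array reached the lowest LPS+DMSO level of 9.28. It fell by 1.0 ± 0.32 (limma, adjusted p = 0.035), to 49.9% (31.3% to 79.5%), with -1.08 and -0.93 within the slides. Both its size and its p were at the edge of the rule. The call was lost when any one of the 4 LPS+DMSO arrays was left out (-0.92 to -1.07, adjusted p = 0.050 to 0.097) and without LPS+cordycepin replicate 2, 3 or 4 (-0.91 to -1.0, adjusted p = 0.069 to 0.089). With the culture day as a block its adjusted p was 0.0048.

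Ccl3 read 16.71, 16.30, 16.38 and 16.58, lower than LPS+DMSO on each day with no overlap. Its change of -0.62 ± 0.17 (limma, adjusted p = 0.019) left 65.2% of the LPS+DMSO level (50.5% to 84.1%) and stayed short of 2-fold. The changes were -0.60 and -0.64 within the slides.

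Ccl5 read 12.16, 11.93, 12.15 and 12.45, lower on 4 of 4 days and without overlap with LPS+DMSO. The change was -1.42 ± 0.49 and did not pass with all 16 arrays in the fit (limma, adjusted p = 0.056), although the days ranged only from -1.54 to -1.30. DMSO replicate 2 is not part of this comparison but widens the spread that the conditions share. Without that array the adjusted p was 1.6e-04 with the same change. Within the slides Ccl5 changed by -1.49 and -1.36.

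Ccl6 and Ccl9 did not pass. Ccl6 read 8.05, 8.21, 8.34 and 8.30 in LPS+cordycepin, a change of 0.26 ± 0.14 (limma, adjusted p = 0.26; 95% interval -0.040 to 0.55). Ccl9 read 14.30, 14.08, 14.41 and 14.40, a change of -0.19 ± 0.26 (adjusted p = 0.71; -0.75 to 0.36). Their values overlapped with LPS+DMSO. Within the slides Ccl6 changed by 0.060 and 0.45, and Ccl9 by -0.26 and -0.12.

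**Figure D2:**
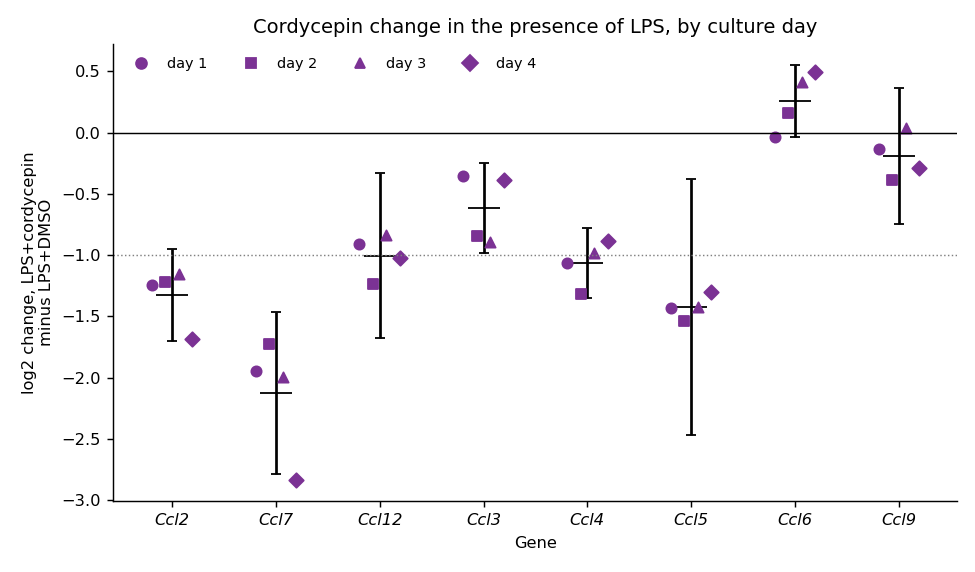
Change of each chemokine mRNA with cordycepin in the presence of LPS (log2, LPS+cordycepin minus LPS+DMSO, y axis) for the 8 genes tested (x axis), with 1 purple symbol for each culture day and, in black, the limma change with its 95% interval; the dotted line marks 2-fold lower. All 4 days lie below 0 for Ccl2, Ccl7, Ccl12, Ccl3, Ccl4 and Ccl5, while Ccl6 and Ccl9 have days on both sides.

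2 genes from the marker lists of other blood cells moved in this same comparison, in which 942 of 15877 genes were called higher and 242 lower. Among the B cell markers, Cd79a, a part of the B cell receptor, was 2.63 ± 0.31 higher in LPS+cordycepin than in LPS+DMSO (limma, adjusted p = 1.3e-05). Its arrays ran from 6.25 to 6.48 in LPS+DMSO and from 8.19 to 9.99 in LPS+cordycepin, with no overlap. The defining B cell gene Ms4a1 was well above background on 0 of 16 arrays. Of 3 neutrophil markers, Mpo, the peroxidase of granulocyte precursors, was 3.97 ± 0.20 higher (adjusted p = 2.3e-09), from 5.43 to 6.12 on the LPS+DMSO arrays and from 9.47 to 10.26 on those of LPS+cordycepin. Elane was not called, the summed level of the list was 9.30 to 10.45 and 10.09 to 11.01, and Ly6g was well above background on 0 arrays. The summed level of 3 T cell markers was 8.52 to 9.0 and 8.49 to 10.20. Of these, Cd3e was well above background on 16 of 16 arrays and was not called, and Cd3g and Cd2 were on 0 arrays. No fibroblast or epithelial marker passed the filter. The part of these transcripts in the chemokine changes was not tested. None of the 8 macrophage markers was called in this comparison, and their summed level ran from 18.23 to 18.38 and from 18.14 to 18.48.

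In unstimulated cells, cordycepin lowered none of the 8 genes by the rule (limma), where 1.06% of all genes were lower by it. The methods' univariate test called none either. At an unadjusted p under 0.05 in limma there were 2, and the share of all genes at that threshold was not counted. With an adjusted p below 0.05 and no minimum fold 1 gene passed, against 7.55% of all genes. This was Ccl4, at 13.29, 13.11, 13.09 and 13.23 in cordycepin, all below the lowest DMSO array at 13.49. It fell by 0.69 ± 0.13 (adjusted p = 0.0018), and by 0.62 without DMSO replicate 2 (adjusted p = 0.0059). The change was -0.92 and -0.45 within the slides.

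Ccl3 read 14.43, 14.17, 13.88 and 14.07 in cordycepin, lower than DMSO on 4 of 4 days but with overlapping values. Its change was -0.52 ± 0.17 (limma, adjusted p = 0.054), or -0.40 without DMSO replicate 2 (adjusted p = 0.15), and -0.68 and -0.36 within the slides. With the culture day as a block its adjusted p was 0.035, still short of 2-fold. The resting readings of the other genes were 11.10 to 11.54 for Ccl2, 5.37 to 5.83 for Ccl7, 6.80 to 7.82 for Ccl12, 10.10 to 11.30 for Ccl5, 7.85 to 8.19 for Ccl6 and 14.25 to 14.44 for Ccl9. All of these overlapped with DMSO. Ccl7 was well above background on 3 of these 4 arrays. For Ccl5 the change of -0.92 ± 0.49 (adjusted p = 0.25) was -0.22 ± 0.23 without DMSO replicate 2 (adjusted p = 0.61), and for Ccl9 the change of 0.40 was 0.022. The change of Ccl7 was -0.44 ± 0.31 (adjusted p = 0.40), and -0.11 without that array. None of the remaining genes came near 2-fold either way. Ccl2 changed by -0.21 and without that array by -0.085, Ccl12 by 0.13 and 0.24, and Ccl6 by 0.062 and -0.036. Within the slides the resting changes were -1.16 and 0.28 for Ccl7, -0.44 and 0.0077 for Ccl2, -0.080 and 0.33 for Ccl12, -1.44 and -0.40 for Ccl5, -0.055 and 0.18 for Ccl6, and 0.62 and 0.17 for Ccl9. Of the marker genes of other cells, Mpo was called higher here (2.02 ± 0.20), where 713 of 15877 genes were. The summed level of its list was 9.16 to 9.66 in DMSO and 9.22 to 9.64 in cordycepin.

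Within cordycepin, LPS still raised 5 of the 8 genes, where 1.69% of all genes rose, and the median change was 1.68 against -0.046. Ccl4 rose by 3.80 ± 0.13, or 13.9-fold (limma, adjusted p = 4.4e-11). Ccl2 rose by 2.68 ± 0.18 (adjusted p = 7.3e-08), Ccl3 by 2.36 ± 0.17 (2.0e-07) and Ccl7 by 2.12 ± 0.31 (2.8e-04). For each of these the LPS+cordycepin arrays lay above all cordycepin arrays. Ccl12 rose by 1.21 ± 0.32 (adjusted p = 0.026), a call that was lost without cordycepin replicate 3 or 4 (1.08 and 1.05) and without LPS+cordycepin replicate 1, 3 or 4 (1.10 to 1.22). Ccl5 changed by 1.25 ± 0.49 (adjusted p = 0.17), higher on 4 of 4 days without overlap, and passed without DMSO replicate 2 (adjusted p = 0.0013). Ccl6 changed by 0.17 ± 0.14 and Ccl9 by -0.026 ± 0.26, with overlapping values. Within the slides Ccl12 changed by 0.81 and 1.61 and Ccl5 by 0.88 and 1.61, on either side of 2-fold. The changes were 3.70 and 3.90 for Ccl4, 2.51 and 2.85 for Ccl2, 2.20 and 2.51 for Ccl3, 2.21 and 2.02 for Ccl7, 0.11 and 0.23 for Ccl6, and -0.090 and 0.039 for Ccl9. Of the markers of other cells, Cd79a was 2.69 ± 0.31 higher (adjusted p = 2.9e-05) and Mpo 2.73 ± 0.20 higher (adjusted p = 1.7e-07) in this comparison, and their part in it was not tested.

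**Figure D3:**
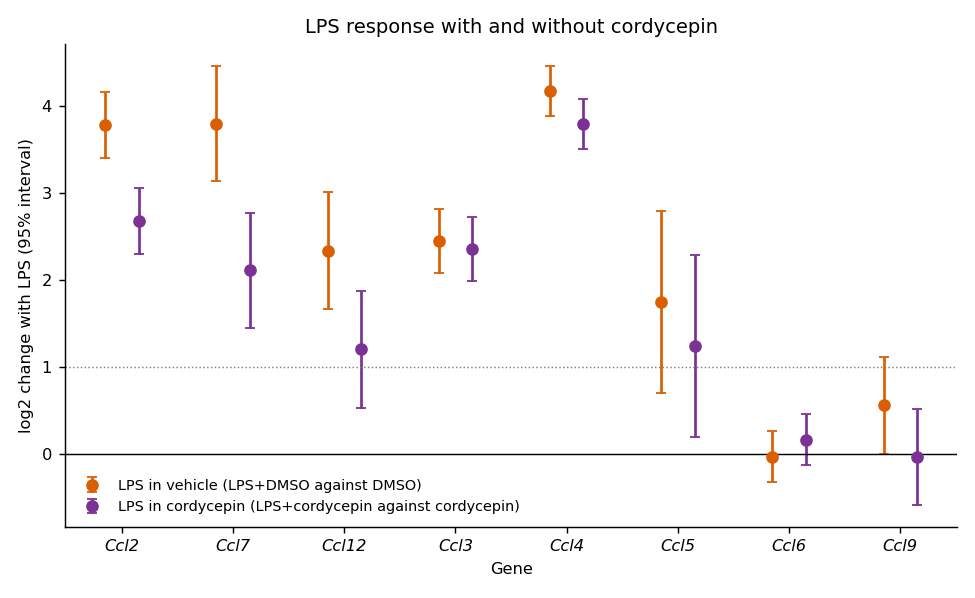
Change with LPS (log2, y axis) of the 8 chemokine mRNAs tested (x axis) in vehicle (orange) and in cordycepin (purple), as limma estimates with 95% intervals; the dotted line marks 2-fold higher. The intervals of Ccl2 and of Ccl7 do not overlap, and those of Ccl12, Ccl3, Ccl4, Ccl5, Ccl6 and Ccl9 do. Those of Ccl6 include 0 in both.

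The levels of Ccl2, Ccl7, Ccl12 and Ccl4 thus ran in the order LPS+DMSO, LPS+cordycepin and then the conditions without LPS. Of the latter, DMSO and cordycepin did not differ beyond their spread for Ccl2, Ccl7 and Ccl12, and cordycepin was the lower for Ccl4 by under 2-fold. Ccl5 had this order too outside DMSO replicate 2. For Ccl3 the order was the same, with LPS+cordycepin below LPS+DMSO by under 2-fold, and for Ccl6 and Ccl9 no neighbours in the order differed beyond their spread.

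Whether the LPS response itself differed between vehicle and cordycepin was tested as the interaction, which is the LPS change in cordycepin less that in vehicle. None of the 8 genes was called (limma), where 0.17% of all genes were lower by the rule. At an unadjusted p under 0.05 there were 3, and the share of all genes at that threshold was not counted. The estimates were -1.11 ± 0.25 for Ccl2 (adjusted p = 0.067), -1.69 ± 0.44 for Ccl7 (adjusted p = 0.13) and -1.13 ± 0.45 for Ccl12 (adjusted p = 0.48). These estimates can be written as the fold change with LPS in cordycepin as a percentage of the fold change in vehicle. For these CCR2 ligands it was 46.3% for Ccl2 (95% interval 32% to 67.1%), 31.1% for Ccl7 (16.2% to 59.5%) and 45.6% for Ccl12 (23.6% to 88.2%). They are ratios of fold changes, not shares of the rise in signal, and come from interactions that were not called. The intervals hold for 1 gene at a time and are not adjusted for the number of genes. The markers Cd79a (2.28 ± 0.44, adjusted p = 0.027) and Mpo (1.95 ± 0.28, adjusted p = 0.0063) were called higher in the interaction, where 31 of 15877 genes were. The part of these markers in it was not tested.

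Ccl3 had an interaction of -0.10 ± 0.24 (limma, adjusted p = 0.98) and Ccl4 of -0.38 ± 0.19 (adjusted p = 0.71). The mean in cordycepin lay below that in vehicle for both genes without LPS as well as with it. For Ccl3 without LPS the values overlapped and the change did not pass. The fold change with LPS in cordycepin was 93.5% of that in vehicle for Ccl3 (65.2% to 134.1%) and 77.1% for Ccl4 (58.3% to 102.0%). This ratio of fold changes is not the share of the rise in signal that remained, since the lower level without LPS enters it. For Ccl5 the interaction was -0.50 ± 0.69 and for Ccl9 -0.59 ± 0.37, and for Ccl6 it was 0.19 ± 0.20. A p that missed the threshold does not show equal responses.

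The interaction rests on the DMSO arrays. Without DMSO replicate 2, 35 of 15877 genes were lower in the interaction by the rule. In that fit the interaction of Ccl2 was -1.24 ± 0.24 (limma, adjusted p = 0.026) and that of Ccl7 was -2.02 ± 0.35 (adjusted p = 0.015), so that both were called, and Ccl5 came to -1.21 ± 0.31 (adjusted p = 0.12). None of the other 5 was called, with -1.24 ± 0.47 for Ccl12, -0.22 ± 0.23 for Ccl3, -0.44 ± 0.19 for Ccl4, -0.22 ± 0.15 for Ccl9 and 0.29 ± 0.19 for Ccl6, where Ccl9 moved from -0.59. Ccl2 was also called without DMSO replicate 1 (-1.23, adjusted p = 0.038). The values of Ccl2 were -0.79 on the slide of replicates 1 and 2 and -1.43 on that of replicates 3 and 4. For Ccl7 they were -0.68 and -2.69, and for Ccl12 -1.0 and -1.27. They were 0.088 and -0.28 for Ccl3, -0.27 and -0.48 for Ccl4, -0.045 and -0.96 for Ccl5, 0.12 and 0.27 for Ccl6, and -0.88 and -0.30 for Ccl9.

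**Figure D4:**
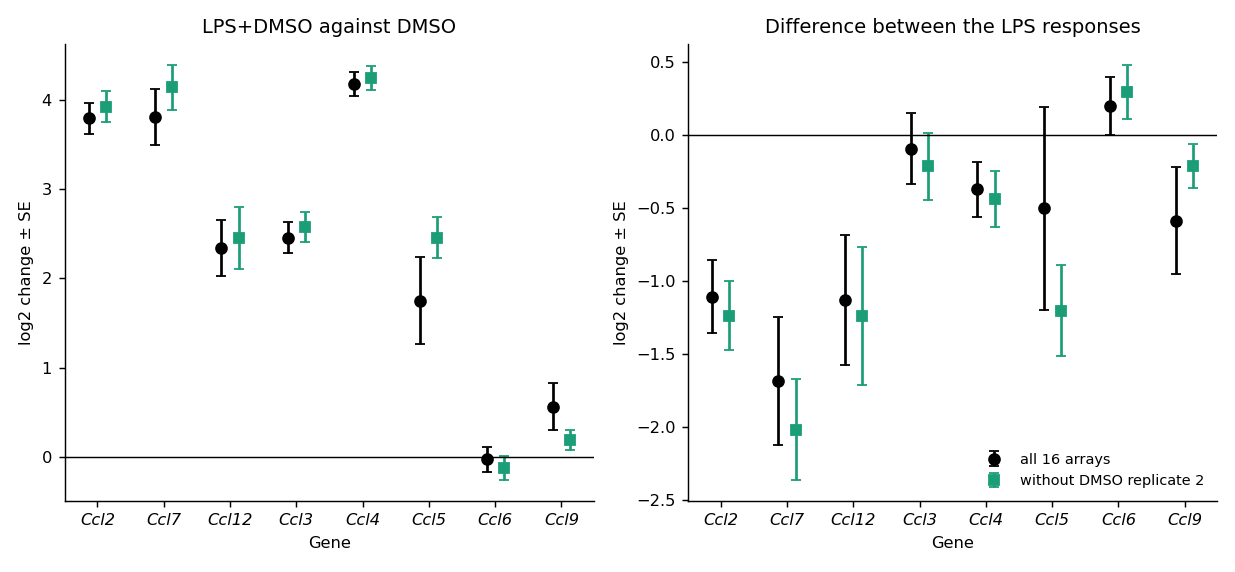
Change (log2 ± SE, y axis) of the 8 genes tested (x axis) with all 16 arrays (black circles) and without DMSO replicate 2 (green squares), for LPS+DMSO against DMSO on the left and for the difference between the LPS responses in cordycepin and vehicle on the right. Leaving out that control moved Ccl5 most, from 1.75 to 2.45 on the left and from -0.50 to -1.21 on the right, and narrowed its error.

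Of 15 other CC ligands on the list 11 were on the array and 1 was tested, Ccl25, an attractant of thymocytes and gut-homing T cells, which was called in no comparison. With no minimum fold it rose with cordycepin, by 0.85 ± 0.14 in LPS (limma, adjusted p = 3.1e-04) and by 0.65 ± 0.14 at rest (adjusted p = 0.0036). Of 15 CC receptors and related genes 2 were tested. Ccrl2, a non-signalling chemokine receptor known as LPS-inducible in macrophages, went from a mean of 6.36 in DMSO to 11.76 in LPS+DMSO. It rose by 5.40 ± 0.21 (limma, adjusted p = 9.7e-11), and its mean in LPS+cordycepin was 11.51, a change of -0.25 that was not called. Ccr2, the receptor of Ccl2, Ccl7 and Ccl12, was not called in any comparison, with means from 6.53 to 7.40.

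Of 12 NF-kB subunit and inhibitor genes 11 were tested, and 8 rose with LPS in vehicle, against 2.09% of all genes, with a median change of 1.71 against -0.038. Tnfaip3, a ubiquitin-editing inhibitor of NF-kB signalling, rose by 5.24 ± 0.13 (limma, adjusted p = 6.6e-13), Nfkbiz by 5.21 ± 0.22, Nfkbia by 3.28 ± 0.084 and Nfkbid by 2.16 ± 0.26, the last 3 being genes of the IkB family, which NF-kB itself induces. With cordycepin in the presence of LPS 2 of the 11 were lower, against 1.52% of all genes, and the median change was -0.49 against 0.033. Nfkbie fell by 1.39 ± 0.11 (adjusted p = 2.9e-07) and Nfkbiz by 1.05 ± 0.22 (adjusted p = 0.0025), whereas Nfkbia, which encodes the main cytoplasmic inhibitor of NF-kB, changed by -0.050 ± 0.084 (adjusted p = 0.78). In the interaction 1 of the 11 was called lower, against 0.17% of all genes, Tnfaip3 at -1.20 ± 0.19 (adjusted p = 0.010). The interaction of Nfkbia was -0.74 ± 0.12 (limma, adjusted p = 0.011), short of 2-fold. Its level at rest was 0.69 ± 0.084 higher with cordycepin (adjusted p = 2.4e-05), also short of 2-fold.

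**Figure D5:**
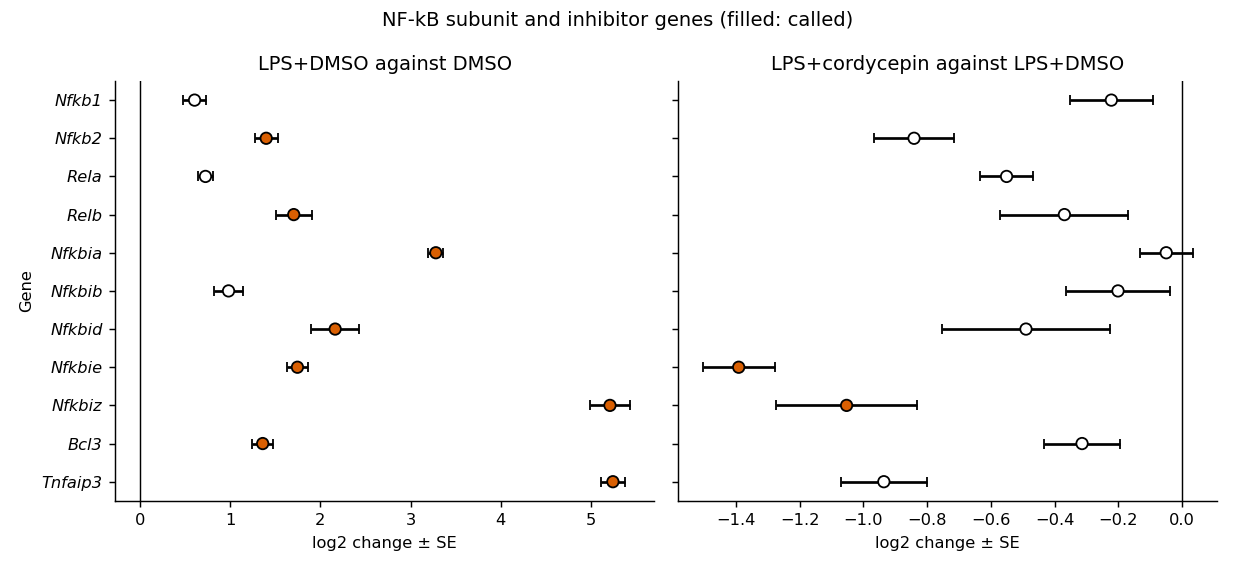
Change (log2 ± SE, x axis) of the 11 NF-kB subunit and inhibitor genes tested (y axis) with LPS in vehicle (left) and with cordycepin in the presence of LPS (right); filled symbols were called by the rule above. On the left 8 genes are filled, and on the right Nfkbie and Nfkbiz are.

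For each chemokine called in a comparison, the genes with the most similar changes from DMSO were sought, as the smallest root mean square difference over the 3 changes (cordycepin, LPS+DMSO and LPS+cordycepin) among 10496 named genes, or 11645 for Ccl7. Ccl4 lay closest to Dusp1, a phosphatase of MAP kinases, at 0.055 on the log2 scale, and then to Arc at 0.25. Ccl2 lay closest to Btg2 (0.21) and Saa3 (0.23), Ccl7 to Dusp5 (0.20) and Nlrp3 (0.25), and Ccl12 to Tlr2 (0.14) and Cflar (0.17). Ccl3 lay closest to Isg15 (0.20) and Nfkbid (0.22), and Ccl5 to Dusp4 (0.055) and Ifit1 (0.070). These likenesses rest on the shared DMSO arrays. Without DMSO replicate 2, 2 of the 12 pairs were found again, Ccl4 with Dusp1 (0.14) and Ccl5 with Ifit1 (0.10).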

How the data were processed

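The authors read Cy3-labelled, 1-colour Agilent arrays of 4 conditions with 4 replicates each with Agilent Feature Extraction (version 10.7.3.1 per the file headers, 10.10.1.1 per the submitters' processing notes). The deposited scanner files give the processed spot intensity after spatial and multiplicative detrending, with low signals replaced by surrogates, no local background correction and no scaling between arrays. A second deposited table holds the authors' log2 values (scale checked against the scanner values, r = 0.995 to 0.998 on each array; its normalization and centring are not given in the sources used here) and served as an alternative. Here the processed intensity was log2-transformed, spots of a probe were averaged, and the arrays were brought to a common 75th percentile, taken over 18064 probes that were well above background on every array. The filter on dim probes kept 21597, each well above background throughout 1 condition or more, the brightest probe standing for a gene, which left 15877 genes. Linear models in limma 3.58.1 (R 4.3.3) estimated the mean of each condition from the 16 arrays together, with Benjamini-Hochberg adjustment over all genes, and calls needed an adjusted p below 0.05 with a 2-fold change or more. Tested on simulated data for LPS+DMSO against DMSO with 200 changed genes of 15877, the fit recovered 197 (98.5%) with 2 false calls. The planted changes were all larger than 2-fold, and the simulated arrays varied independently of each other. The share recovered therefore does not describe changes near 2-fold or arrays that correlate by day or slide. The number of arrays limits the precision.

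The members and the lists of related and marker genes were chosen with earlier results of these data known. Named are all 9 members, the called genes of each list (at most 4 for each comparison, by size), and the 2 genes most like each called member. Ccr2, Ccl25, Elane, Ms4a1, Ly6g, Cd3e, Cd3g, Cd2 and, beyond the first comparison, Nfkbia were named beside them after their values were seen. So were genes that a list's count singles out. The summed level of the B cell list is not reported here, and Cd79a and Ms4a1 are given singly. The series' design text ties each replicate number to a separate collection day, so the numbers pair the samples. Deviations from the condition means correlated by a mean of 0.20 between arrays of one number (-0.059 to 0.44, 20 of 24 pairs over 0.1), by 0.18 between different numbers on one slide and by -0.19 between slides. The alternatives were other scalings, background correction, filters, probe rules, blocks, thresholds, tests and left-out arrays. Tables and plots were made in Python 3.11.15 (pandas 2.3.3, numpy 2.4.6, matplotlib 3.10.9).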

Additional observations from a re-analysis of the deposited data

Results flagged for a closer look

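Among 36 groups of 4 arrays (9 genes in 4 conditions), 4 had a single array whose gap to the nearest of the others, as a share of the group's range, exceeded Dixon's 95% critical value, where chance flags about 1 in 20 groups, or 1.8 of 36. Ccl5 in DMSO replicate 2 read 13.95 against 11.04 to 11.26 on the other DMSO arrays, a gap of 0.926 of the range. Ccl4 in LPS+cordycepin replicate 2 read 16.72 against 17.05 to 17.08 (0.901). Ccl2 in LPS+DMSO replicate 4 read 15.65 against 15.19 to 15.24 (0.892), and Ccl7 on the same array read 10.52 against 9.58 to 9.73 (0.840).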

How the results depend on the processing

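The 40 changes of single genes were recomputed under 18 other settings, fewer where a setting could not be fitted (the methods' univariate test and the fit of only the groups compared give no interaction, and Ccl7 fails the filter on all arrays), and in 20 fits that leave out a replicate or an array. Of 1491 values, 1405 kept direction and side of the threshold, 43 lost and 19 gained a call, and 24 changed sign, all of changes that were not called. The number of genes higher with LPS was 5 to 6 in vehicle over all settings and 4 to 6 in cordycepin. The number lower with cordycepin in LPS was 3 to 5 over the other settings and 2 to 5 when a replicate or array was left out, 2 without LPS+cordycepin replicate 2. In cordycepin against DMSO it was 0, or 1 with no minimum fold. The interaction gave 1 called gene (Ccl2) with the slide as a block and 1 (Ccl2) with an intensity trend, and 0 to 2 with arrays left out. The replicate block changed no member's call, and with it Ccl2 was lower by 1.33 in LPS (adjusted p = 1.3e-04) and the interaction of Ccl12 had an adjusted p of 0.12. The methods' univariate test at its unadjusted threshold gave 6, 5, 0 and 6 genes in the 4 comparisons between conditions, and 5, 5, 0 and 4 after Benjamini-Hochberg. In the same order and directions, 330, 249, 170 and 305 of all 15877 genes passed, and 266, 217, 144 and 267 after Benjamini-Hochberg.

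Of the changes near 0, Ccl6 with LPS (-0.025) was 0.0513 with the percentile over all probes, 0.0002 with the median, 0.0615 with quantile normalization and 0.098 in the authors' values, and -0.15 to 0.13 with arrays left out. In cordycepin against DMSO, Ccl6 was -0.0433 with quantile normalization and -0.0051 in the authors' values (-0.0357 to 0.21 with arrays left out), and Ccl12 was -0.0544 and -0.0969 (-0.13 to 0.44). For LPS within cordycepin Ccl6 was -0.14 with spike-in scaling, and Ccl9 was 0.0087 with quantile normalization (-0.0685 to 0.047). The interaction of Ccl3 ran from -0.22 to 0.056 with arrays left out, and that of Ccl6 was -0.0196 with spike-in scaling. The cause was not tested.

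Spike-in scaling moved the median of all genes to -0.14 in LPS+DMSO against DMSO, -0.12 in LPS+cordycepin against LPS+DMSO and -0.36 in LPS+cordycepin against cordycepin, and Ccl12 lost its call there (0.90, adjusted p = 0.33). In LPS, Ccl12 fell by 0.75 with normexp correction (adjusted p = 0.12). Ccl5 in LPS passed with the percentile over all probes, with spike-in scaling and with the slide as a block (-1.55, -1.58 and -1.42). Over the other settings the change of Ccl7 ran from 2.55 to 3.88 with LPS in vehicle and from 1.12 to 2.25 with LPS within cordycepin. With cordycepin in LPS it ran from -2.28 to -1.64. Signal over background limits Ccl22 on all arrays and Ccl7 on 1.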
